A study of Mus musculus with 15 samples.

Results

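Fatty acid oxidation and the targets of the nuclear receptor PPAR-alpha were followed in mouse kidney through 41 genes, taken by symbol from a deposited table of 17832 genes in 15 libraries. The 41 genes were listed as 20 of mitochondrial oxidation, 12 of peroxisomal oxidation and 2 with products in both organelles. The other 7 encode PPAR-alpha itself or are target genes acting elsewhere in the cell. A listing under 1 organelle does not exclude that the product also occurs in the other. All 41 were in the table, and all 41 averaged 0.5 FPKM or more, the minimum for testing. FPKM counts fragments per kilobase of a gene's transcript after scaling for the reads mapped in each library.

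The kidneys came from male C57BLKS/J mice aged 22 weeks. Of the 3 groups, 5 libraries were from db/db mice given dapagliflozin at 1 mg/kg in 0.5% methylcellulose, 5 were from db/db mice given 0.5% methylcellulose alone, and 5 were from m/m control mice given the same vehicle. The db/db mice carry a defective leptin receptor and develop obesity and diabetes, so obesity and diabetes cannot be told apart in this model. Dapagliflozin inhibits SGLT2, the glucose transporter of the early proximal tubule. All 3 groups received the vehicle, and m/m mice given dapagliflozin were not analysed here.

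Long-chain fatty acids are activated to acyl-CoA, carried into mitochondria on carnitine, and shortened there in repeated rounds of dehydrogenation, hydration, a second dehydrogenation and thiolysis. Peroxisomes shorten very-long-chain, branched and dicarboxylic fatty acids with their own enzymes and pass the products on. PPAR-alpha pairs with RXR, is activated by fatty acids and by fibrate drugs, and switches on genes of both routes; the proximal tubule, which relies on fatty acids as fuel, is the kidney segment best known for it.

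Libraries fell into 2 sets by depth. A high-read set of 8 libraries (db/db vehicle 1 to 3 and all 5 m/m) held a mean of 15.6 M reads, and a low-read set of 7 (dapagliflozin 1 to 5 and db/db vehicle 4 and 5) held a mean of 1.9 M. The sets also differed in level: in db/db vehicle kidneys, the mean FPKM of the low-read libraries over that of the high-read libraries had a median of 0.584 over the 41 genes and was below 1 for 35 of them. It was lowest for Acot2, at 0.321, and highest for Eci3, at 1.55. This ratio was not computed over all genes. A factor for each library gave its median level against the mean of all libraries, over genes detected in every library. The factor was 0.987 and 0.915 in db/db vehicle 4 and 5, against 1.18, 1.14 and 1.18 in db/db vehicle 1 to 3. Each comparison was therefore kept within 1 set: db/db vehicle 1 to 3 against m/m 1 to 5, and dapagliflozin 1 to 5 against db/db vehicle 4 and 5. Dapagliflozin 2 and 3 differed by no more than sampling noise over all genes and were counted as 1 sample. The labels do not say that replicates were separate animals, so p-values measure the spread between these samples. Outside Fabp1, every gene of the 41 had at least 30 reads in every library.

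The kidney identity was checked with marker genes. In db/db vehicle 1 to 3 the summed FPKM of 9 proximal tubule markers was 5230 to 6350, against 7340 to 8080 in m/m kidneys; 6 of the 9 fell and 0 rose. The summed markers of the collecting duct were 403 to 475 FPKM in db/db vehicle and 239 to 286 FPKM in m/m, and those of the podocyte were 126 to 143 FPKM in db/db vehicle and 71.1 to 89.5 FPKM in m/m. Adipocyte markers summed to at most 0.762 FPKM in any library, and each of the 6 was at 0 in at least 1 library. In whole kidney, fewer cells of a type and less RNA per cell cannot be told apart. The part of these marker differences in the values below was not tested.

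PPAR-alpha with RXR binds a direct repeat of a hexamer with 1 base between the copies. The promoters of 35 of the 41 genes (RefSeq, GRCm38.p6, 250 bases before to 50 after the start site) were searched on both strands for that repeat, spelled as AGGTCA, any 1 base, and AGGTCA again, which has 12 specified bases. No promoter of these 35 genes matched it fully, 1 matched with at most 1 mismatch and 6 with at most 2; among all 27025 genes with a promoter, 0.644% had a match with at most 1 mismatch and 4.4% with at most 2. The 5 matches that lie before the start site are shown because they belong to genes with different behaviour below: Fabp1, Acot4 and Plin2 rose in db/db kidneys, Cd36 fell and Etfa did not pass the test. Capitals mark the match, which in all 5 is on the strand opposite to the one printed, with 1 mismatch in Fabp1 and 2 in the others. The sixth match belongs to Slc25a20 and lies just after its start site. A match describes the letters in this window and is not a measured binding site.
Fabp1 (chr6:71199792-71199844, plus strand): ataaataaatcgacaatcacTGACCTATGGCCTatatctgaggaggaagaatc
Acot4 (chr12:84038346-84038378, plus strand): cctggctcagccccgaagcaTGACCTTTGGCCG
Plin2 (chr4:86670252-86670304, minus strand): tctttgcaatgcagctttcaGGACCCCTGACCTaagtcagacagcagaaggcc
Cd36 (chr5:17835927-17835979, minus strand): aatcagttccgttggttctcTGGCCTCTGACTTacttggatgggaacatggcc
Etfa (chr9:55512288-55512340, minus strand): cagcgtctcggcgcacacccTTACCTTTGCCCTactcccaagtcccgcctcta

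Most of the 41 genes were higher in db/db vehicle kidneys than in m/m kidneys. With limma on log2(FPKM + 1) and an adjusted p under 0.05 over all 12869 genes tested, 27 of the 41 rose (65.9%), 6 fell (14.6%) and 8 did not pass. Of all genes tested, 37.8% were called, 29.5% higher and 8.29% lower. The libraries of the groups did not overlap for 27 members in the higher and 6 in the lower direction, which was so for 37.5% and 10.2% of all genes tested. The median log2 fold change of the 41 was 0.43, against 0.16 over all genes tested. All-gene counts depended on the scaling: with median-of-ratios scaling, which set the all-gene median to 0.00, 1541 genes were higher and 2239 lower, where the FPKM as deposited gave 3793 and 1067. Under that scaling 19 of the 41 rose and 8 fell, with a median of 0.22. The share of higher calls among the called members was then 70.4%, against 81.8% as deposited. Over all genes, 3793 of the 4860 called as deposited were higher, while under that scaling fewer were higher than lower.

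The mitochondrial genes made up most of the increase. Of these 20 genes, 16 rose (80%), 3 fell (15%) and only Etfa did not pass, with a median log2 fold change of 0.44. Of the 12 peroxisomal genes, 4 rose (33.3%), 2 fell (16.7%) and 6 did not pass, with a median of 0.24. Over all genes tested, 29.5% were called higher and 8.29% lower. Median-of-ratios scaling left 11 mitochondrial genes higher and 4 lower, and 2 peroxisomal genes higher and 3 lower. The difference between the organelles was not tested. Summed over the 20 mitochondrial genes, db/db vehicle 1 to 3 had 3080, 2990 and 3330 FPKM, against 2300, 2460, 2360, 2340 and 2330 FPKM in m/m 1 to 5. The sums of the 12 peroxisomal genes were 1050, 1010 and 1130 FPKM in db/db vehicle 1 to 3. In m/m 1 to 5 they were 1110, 1210, 1160, 1080 and 1160 FPKM, so the groups overlapped as deposited. Neither set of sums was rescaled. The factors that median-of-ratios scaling divides by were 1.18, 1.14 and 1.18 in db/db vehicle 1 to 3 and 0.984 to 1.02 in m/m.

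**Figure D1:**
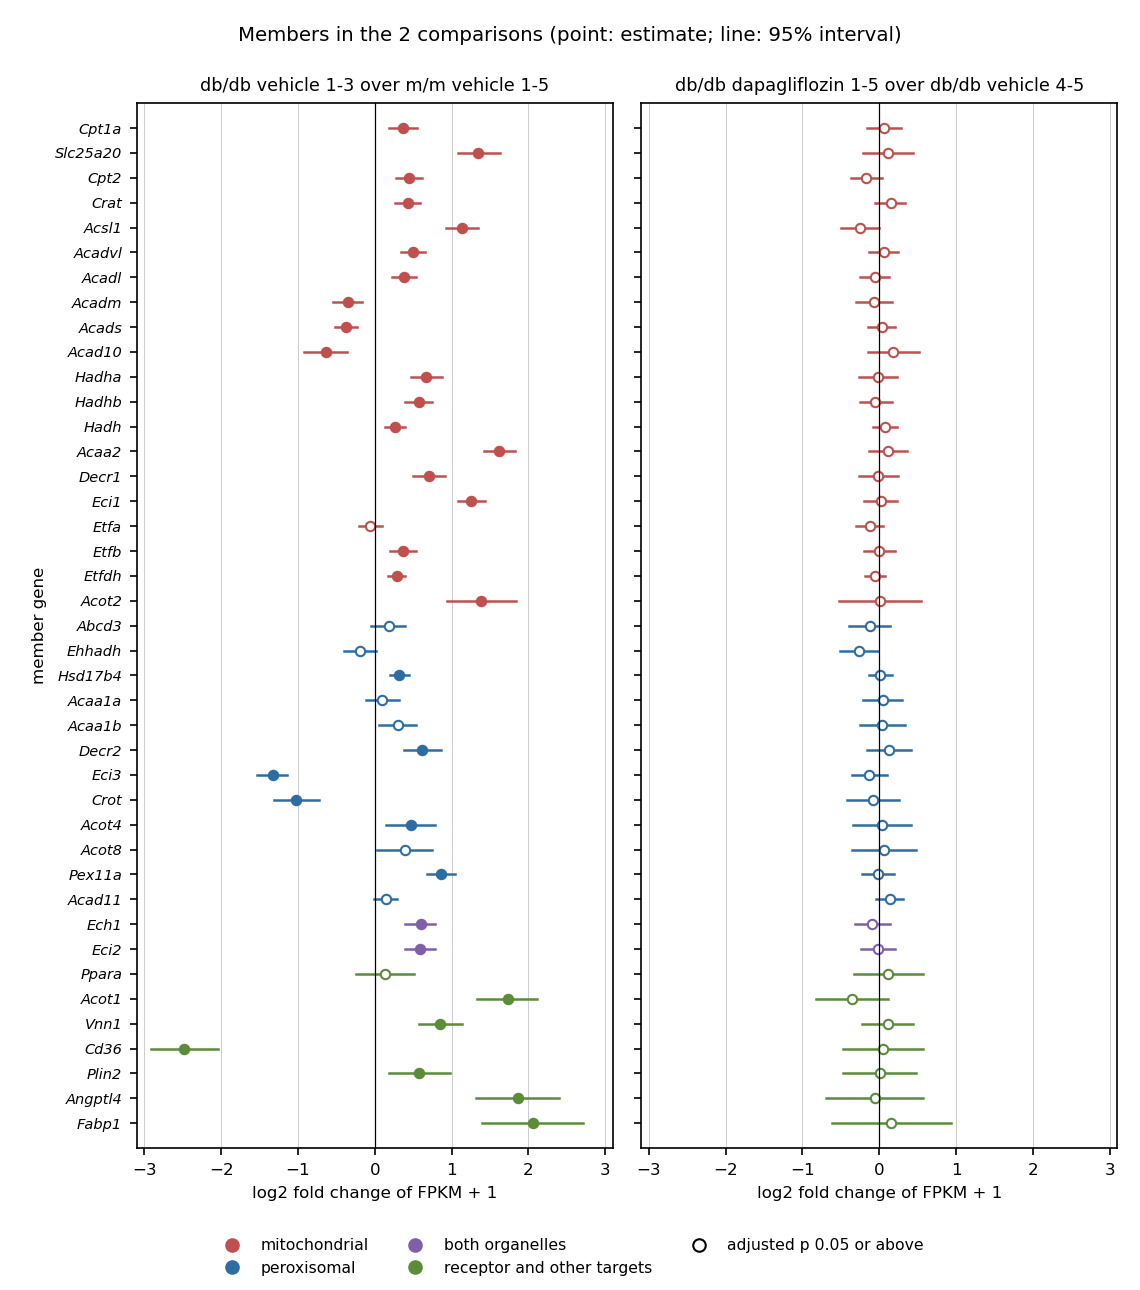
Log2 fold change of FPKM + 1 (x axis) of each of the 41 genes (y axis, by compartment in colour), with its 95% interval, for db/db vehicle 1 to 3 over m/m 1 to 5 (left) and dapagliflozin 1 to 5 over db/db vehicle 4 and 5 (right). Filled points have an adjusted p under 0.05: 33 on the left and 0 on the right.

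The genes for activation of fatty acids and their entry into mitochondria rose at every listed step. The carnitine-acylcarnitine carrier Slc25a20, which exchanges acylcarnitine for carnitine across the inner membrane, had 68.8, 51.7 and 77.8 FPKM in db/db vehicle 1 to 3, against 23.3, 26.8, 24.9, 25.6 and 24.1 FPKM in m/m 1 to 5. Its lowest db/db value was above every m/m value. The log2 fold change was 1.35 (95% interval 1.08 to 1.63, adjusted p = 4.95e-06). The long-chain acyl-CoA synthetase Acsl1, which activates fatty acids before transport, had 69.8, 66.8 and 69.5 FPKM in db/db vehicle and 25.6, 37.0, 31.3, 30.0 and 30.1 FPKM in m/m. These values did not overlap either, and the log2 fold change was 1.14 (0.93 to 1.35, adjusted p = 2.28e-06).

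Smaller increases were seen for the other carnitine enzymes. Cpt1a, the outer-membrane carnitine palmitoyltransferase at which the pathway is regulated, averaged 179 ± 22.4 FPKM in db/db vehicle and 138 ± 9.03 FPKM in m/m (SD, n = 3 and 5; log2 fold change 0.37, adjusted p = 0.00473). Cpt2, which returns the acyl group to CoA inside, averaged 105 ± 12.2 FPKM in db/db vehicle and 75.9 ± 3.63 FPKM in m/m (log2 fold change 0.45, adjusted p = 0.000727). Crat, which handles acetylcarnitine, averaged 53.7 ± 5.98 FPKM in db/db vehicle and 39.6 ± 1.07 FPKM in m/m (0.43, adjusted p = 0.000882). Cpt1a lost its call under median-of-ratios scaling (log2 fold change 0.16, adjusted p = 0.262).

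The acyl-CoA dehydrogenases, which take the first hydrogens from acyl-CoA, moved in both directions: of the 5 listed, 2 rose and 3 fell. The very-long-chain enzyme Acadvl averaged 196 ± 15.5 FPKM in db/db vehicle and 137 ± 4.78 FPKM in m/m, a log2 fold change of 0.50 (adjusted p = 0.000207); 42.9% of its exon bases overlap Dvl2 on the other strand, and the strand setting of the counting is not given. The long-chain enzyme Acadl averaged 192 ± 16.1 FPKM in db/db vehicle and 147 ± 5.25 FPKM in m/m (0.38, adjusted p = 0.00133; 0.18 and 0.0890 with median-of-ratios scaling). Both rose, while the other 3 listed enzymes fell; Acad9, a further long-chain dehydrogenase described below, also fell.

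The medium-chain enzyme Acadm had 335, 379 and 372 FPKM in db/db vehicle 1 to 3, against 456, 506, 471, 400 and 474 FPKM in m/m 1 to 5. The groups did not overlap, and the log2 fold change was -0.35 (-0.54 to -0.16, adjusted p = 0.00843). The short-chain enzyme Acads had 92.1, 94.4 and 84.2 FPKM in db/db vehicle and 118, 116, 127, 110 and 117 FPKM in m/m. Every db/db value was below every m/m value (-0.38, adjusted p = 0.000793). Acad10, another member of the dehydrogenase family, averaged 26.4 ± 2.38 FPKM in db/db vehicle and 41.6 ± 3.63 FPKM in m/m (-0.64, adjusted p = 0.00206); 20.4% of the 50-base stretches of its transcripts also occur in Acad12, so its reads may be split between them.

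The 4 listed genes of the later mitochondrial steps, Acaa2, Hadha, Hadhb and Hadh, rose. Echs1, the short-chain enoyl-CoA hydratase and no member of the 41, was not called, at 139 ± 5.21 FPKM in db/db vehicle and 150 ± 7.18 FPKM in m/m (SD, n = 3 and 5; log2 fold change -0.11, adjusted p = 0.120). Acaa2, the thiolase that releases acetyl-CoA, had 280, 331 and 325 FPKM in db/db vehicle 1 to 3 and 92.9, 109, 92.5, 112 and 97.4 FPKM in m/m 1 to 5. The groups were far apart, with a log2 fold change of 1.62 (1.42 to 1.83, adjusted p = 9.29e-08). Hadha, the alpha subunit of the trifunctional protein for long chains, had 150, 116 and 167 FPKM in db/db vehicle, against 87.4, 93.7, 86.8, 93.3 and 85.8 FPKM in m/m. It was higher in each of the 3 db/db libraries (0.67, adjusted p = 0.000158). Its partner Hadhb averaged 62.5 ± 8.53 FPKM in db/db vehicle and 41.6 ± 2.75 FPKM in m/m (0.57, adjusted p = 0.000151); 62.4% of its 50-base stretches are shared with Gm13910.

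Hadh, the dehydrogenase for medium and short chains, had the smallest called increase of the 41 genes, with 390 ± 11.6 FPKM in db/db vehicle and 325 ± 14.1 FPKM in m/m (log2 fold change 0.26, adjusted p = 0.00464). With median-of-ratios scaling it was 0.05 (adjusted p = 0.663). Thus within this group the increase ran from 0.26 for Hadh to 1.62 for Acaa2.

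Unsaturated fatty acids need an isomerase and a reductase before they can complete the spiral. Eci1, the mitochondrial enoyl-CoA isomerase, had 205, 203 and 240 FPKM in db/db vehicle 1 to 3, against 85.7, 99.4, 86.6, 93.0 and 83.1 FPKM in m/m 1 to 5. No values overlapped (log2 fold change 1.26, 1.08 to 1.44, adjusted p = 2.39e-07). Decr1, the dienoyl-CoA reductase, averaged 98.3 ± 8.12 FPKM in db/db vehicle and 59.4 ± 1.98 FPKM in m/m (0.71, adjusted p = 0.000118).

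Electron transfer flavoprotein takes the electrons from the dehydrogenases to the respiratory chain through Etfdh. Etfb averaged 369 ± 26.5 FPKM in db/db vehicle and 285 ± 15.3 FPKM in m/m (log2 fold change 0.37, adjusted p = 0.00274), and Etfdh averaged 126 ± 3.98 FPKM in db/db vehicle and 103 ± 3.01 FPKM in m/m (0.29, adjusted p = 0.00117). Both lost their calls with median-of-ratios scaling, at 0.16 (adjusted p = 0.127) for Etfb and 0.08 (adjusted p = 0.246) for Etfdh. Etfa, the other flavoprotein subunit, averaged 36.7 ± 2.67 FPKM in db/db vehicle and 38.3 ± 1.70 FPKM in m/m, a difference of -0.06 (-0.21 to 0.09, adjusted p = 0.505). With median-of-ratios scaling Etfa was called lower (-0.26, adjusted p = 0.0203). The Etfb value is uncertain, since 58.2% of its exon bases overlap Gm45233 on the same strand.

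Thioesterases cut acyl-CoA back to free acid, and the cytosolic and mitochondrial forms Acot1 and Acot2 rose; the peroxisomal Acot4 and Acot8 are given below. Acot2, the mitochondrial form, had 36.3, 23.4 and 49.4 FPKM in db/db vehicle 1 to 3, against 11.7, 14.8, 12.6, 12.3 and 12 FPKM in m/m 1 to 5 (log2 fold change 1.39, 0.94 to 1.84, adjusted p = 0.000231). Acot1, the cytosolic form, had 94.8, 71.8 and 112 FPKM in db/db vehicle and 24.2, 36.8, 29.3, 20.1 and 27.0 FPKM in m/m (1.73, 1.33 to 2.12, adjusted p = 1.38e-05). Both were higher in every db/db library, with db/db vehicle 3 highest and db/db vehicle 2 lowest. They share 33% of the 50-base stretches of Acot1 and 27.7% of those of Acot2, so reads of the pair can be assigned to either gene.

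**Figure D2:**
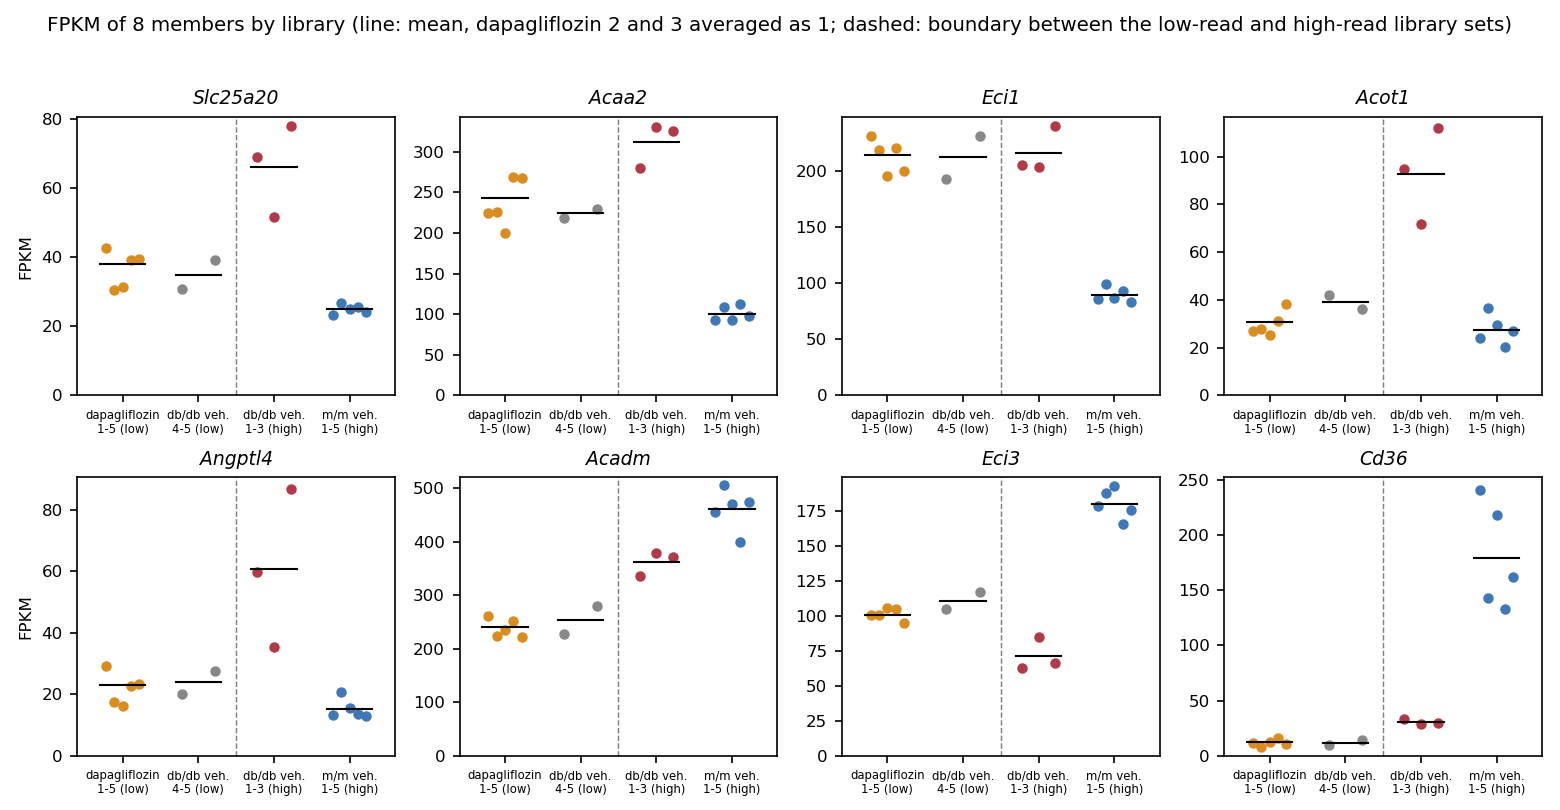
FPKM (y axis, from 0) of 8 genes in each library, for dapagliflozin 1 to 5, db/db vehicle 4 and 5, db/db vehicle 1 to 3 and m/m 1 to 5 (x axis); points are libraries, lines are means, and the dashed line separates the low-read set on the left from the high-read set on the right. Right of the line, Slc25a20, Acaa2, Eci1, Acot1 and Angptl4 are higher and Acadm, Eci3 and Cd36 lower in every db/db vehicle library than in every m/m library.

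Within the peroxisome, members of 1 pathway moved in opposite directions. Eci3, a peroxisomal enoyl-CoA isomerase, had 62.8, 85.2 and 66.4 FPKM in db/db vehicle 1 to 3, against 179, 188, 193, 166 and 176 FPKM in m/m 1 to 5. The groups lay far apart, with a log2 fold change of -1.33 (-1.53 to -1.14, adjusted p = 2.46e-07). Crot, the carnitine octanoyltransferase that prepares shortened chains for export, had 58.9, 53.4 and 53.5 FPKM in db/db vehicle and 128, 110, 136, 82.0 and 119 FPKM in m/m. Its values did not overlap either (-1.02, -1.31 to -0.73, adjusted p = 8.03e-05). Eci1 and Eci3, isomerases of the same reaction in the 2 organelles, thus differed in direction.

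The 4 peroxisomal genes that rose were Pex11a, Decr2, Hsd17b4 and Acot4. Pex11a, which promotes peroxisome division, had 41.1, 38.5 and 46.9 FPKM in db/db vehicle, against 22.6, 25.1, 23.4, 19.9 and 22.8 FPKM in m/m, with no overlap (log2 fold change 0.86, 0.68 to 1.04, adjusted p = 5.54e-06). Decr2, the peroxisomal dienoyl-CoA reductase, averaged 49.6 ± 9.69 FPKM in db/db vehicle and 31.5 ± 1.02 FPKM in m/m (0.62, adjusted p = 0.000983). Hsd17b4, the bifunctional enzyme for branched and very long chains, averaged 134 ± 4.72 FPKM in db/db vehicle and 107 ± 6 FPKM in m/m (0.32, adjusted p = 0.000893; 0.11 and 0.221 with median-of-ratios scaling).

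The call of Acot4, a thioesterase whose promoter match is shown above, depended on single libraries and on the scaling. It had 22.7, 20.6 and 25.4 FPKM in db/db vehicle, against 15.5, 18.7, 14, 16.1 and 16.9 FPKM in m/m, with no overlap (log2 fold change 0.47, adjusted p = 0.0232). Without m/m 3 the adjusted p was 0.0537, without db/db vehicle 1 it was 0.0583 and without db/db vehicle 3 it was 0.103. With the replicate number as a block it was 0.0526. It was 0.243 with median-of-ratios scaling (log2 fold change 0.27) and 0.077 with quantile normalization (0.39).

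The remaining 6 peroxisomal genes did not pass the test. Ehhadh, the bifunctional enzyme for straight chains and a classical PPAR-alpha target in liver, had 253, 228 and 252 FPKM in db/db vehicle and 247, 315, 290, 244 and 307 FPKM in m/m (log2 fold change -0.19, -0.40 to 0.02, adjusted p = 0.133). The groups overlapped, but with median-of-ratios scaling Ehhadh was called lower (-0.40, adjusted p = 0.00783). The thiolase Acaa1a averaged 66.6 ± 5.84 FPKM in db/db vehicle and 62.1 ± 7.63 FPKM in m/m (adjusted p = 0.438), and its paralog Acaa1b averaged 118 ± 9.43 FPKM in db/db vehicle and 96.8 ± 14.4 FPKM in m/m (adjusted p = 0.0557). The pair share 34.0% of the 50-base stretches of Acaa1a and 35.5% of those of Acaa1b. Abcd3, a fatty acid importer, Acot8, a thioesterase, and Acad11, a dehydrogenase, had log2 fold changes of 0.18, 0.39 and 0.14 and adjusted p of 0.204, 0.0789 and 0.126.

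Both genes listed for the 2 organelles together rose. Ech1, a dienoyl-CoA isomerase and the most highly expressed of the 41 genes per length in db/db vehicle, had 444, 476 and 509 FPKM there and 298, 340, 311, 319 and 302 FPKM in m/m. The values did not overlap (log2 fold change 0.60, adjusted p = 0.000251). Eci2, an enoyl-CoA isomerase, averaged 49.0 ± 5.58 FPKM in db/db vehicle and 32.2 ± 1.73 FPKM in m/m (0.59, adjusted p = 0.000232).

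The receptor gene itself was not called. Ppara had 16.1, 24.2 and 31.8 FPKM in db/db vehicle 1 to 3 and 19.0, 19.2, 21.9, 26.7 and 19.7 FPKM in m/m 1 to 5, so the db/db values spanned those of m/m (log2 fold change 0.13, -0.25 to 0.51, adjusted p = 0.597). The targets acting outside both organelles were called with large changes in both directions. The angiopoietin-like lipase inhibitor Angptl4 had 59.8, 35.2 and 86.8 FPKM in db/db vehicle, against 13.1, 20.8, 15.5, 13.6 and 12.8 FPKM in m/m. No values overlapped (1.86, 1.32 to 2.40, adjusted p = 0.000101), although the db/db libraries differed widely among themselves.

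Cd36, a fatty acid uptake receptor, fell more than any other of the 41 genes. It had 33.4, 28.4 and 30.1 FPKM in db/db vehicle, against 241, 143, 218, 133 and 162 FPKM in m/m. The groups lay far apart (log2 fold change -2.48, -2.91 to -2.04, adjusted p = 1.48e-06). Cd36 is also expressed by endothelium and macrophages: the summed endothelial markers were 65.2 to 85.6 FPKM in db/db vehicle and 70.5 to 76.3 FPKM in m/m, and the summed macrophage markers were 36.9 to 118 FPKM in db/db vehicle and 37.7 to 58.9 FPKM in m/m. Their part in the difference was not tested.

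Fabp1, the liver-type fatty acid binding protein, was near the limit of detection in m/m kidneys. The 3 db/db vehicle libraries had 47, 15 and 35 reads of it, against 1, 0, 1, 1 and 4 in the 5 m/m libraries, or 5.78, 1.97 and 4.61 FPKM in db/db vehicle against 0.121, 0, 0.128, 0.127 and 0.475 FPKM in m/m. Per total reads the 97 db/db reads were 24.0 times the 7 m/m reads, with an exact 95% interval of 11.2 to 61.2 that covers counting error only. Each db/db value was above each m/m value, and the fitted log2 fold change of 2.06 (adjusted p = 0.000214) understates the difference of a gene this low.

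Vnn1, a pantetheinase, averaged 81.9 ± 16.8 FPKM in db/db vehicle and 44.5 ± 3.05 FPKM in m/m (log2 fold change 0.85, adjusted p = 0.000262). Plin2, which coats lipid droplets, had 49.1, 30.4 and 58.2 FPKM in db/db vehicle and 28.9, 30.4, 29.6, 31.3 and 26.8 FPKM in m/m. Its groups overlapped through db/db vehicle 2, and the call (0.58, adjusted p = 0.0260) was lost without db/db vehicle 3 (0.38, adjusted p = 0.154), without db/db vehicle 1 (0.50, adjusted p = 0.0974) and without m/m 5 (0.55, adjusted p = 0.0528). The Plin2 call was also lost with median-of-ratios scaling (0.37, adjusted p = 0.114) and quantile normalization (0.50, adjusted p = 0.0511).

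The db/db vehicle libraries kept an order across the genes that rose. Of these 27 genes, db/db vehicle 3 was the highest of the 3 in 21 and db/db vehicle 2 the lowest in 22. The summed proximal tubule markers in db/db vehicle 1, 2 and 3 were 5230, 6350 and 5440 FPKM, the erythroid markers 48.6, 246 and 119 FPKM, and the macrophage markers 118, 36.9 and 64.4 FPKM. The part of these in the order was not tested. The coefficient of variation of the 41 genes had a median of 9.69% in db/db vehicle 1 to 3 and 6.61% in m/m.

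**Figure D3:**
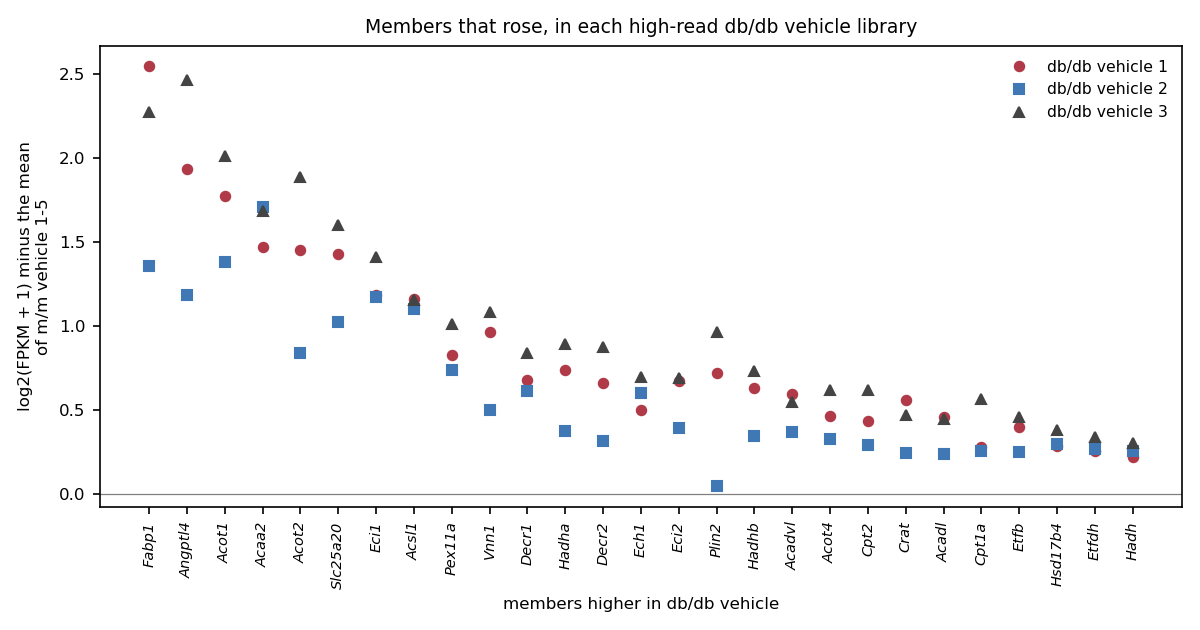
Log2(FPKM + 1) in db/db vehicle 1, 2 and 3 minus the mean of the 5 m/m libraries (y axis), for the 27 genes that rose (x axis, in order of their change). Every point lies above 0, with db/db vehicle 3 highest for 21 genes and db/db vehicle 2 lowest for 22.

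Other genes of the same pathways were read from lists of their own. Of 12 further genes of mitochondrial oxidation that passed the filter, 7 rose (58.3%) and 1 fell (8.33%), against 29.5% and 8.29% of all genes tested. Their median log2 fold change was 0.48. Median-of-ratios scaling gave 5 higher and 4 lower, where 1541 of all 12869 genes tested were higher and 2239 lower. Quantile normalization gave 6 higher and 3 lower. Acsf2, an acyl-CoA synthetase, averaged 30.2 ± 3.24 FPKM in db/db vehicle and 5.43 ± 0.831 FPKM in m/m (2.28, adjusted p = 9.34e-08). Cpt1b, the muscle form of carnitine palmitoyltransferase, averaged 22.2 ± 6.33 FPKM in db/db vehicle and 9.70 ± 1.27 FPKM in m/m (1.09, adjusted p = 0.000245). The gene that fell was Acad9, a dehydrogenase also needed for assembly of respiratory complex I (27.9 ± 1.89 FPKM in db/db vehicle and 42.2 ± 4.45 FPKM in m/m, -0.58, adjusted p = 0.000477).

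Carnitine supply was mixed. Of 5 genes, 2 rose (40%) and 1 fell (20%), against 29.5% and 8.29% of all genes tested. Median-of-ratios scaling gave 1 higher and 1 lower. Bbox1, the last enzyme of carnitine synthesis, averaged 3.61 ± 0.438 FPKM in db/db vehicle and 0.417 ± 0.0935 FPKM in m/m (log2 fold change 1.70, adjusted p = 4.54e-08), and the carnitine transporter Slc22a5 averaged 151 ± 24.6 FPKM in db/db vehicle and 110 ± 9.21 FPKM in m/m (0.44, adjusted p = 0.00692). Tmlhe, the first enzyme of carnitine synthesis, averaged 7.53 ± 0.711 FPKM in db/db vehicle and 15.7 ± 1.35 FPKM in m/m (-0.97, adjusted p = 0.000435).

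Further peroxisomal genes moved both ways, as the peroxisomal genes above did. Of 23 enzymes and transporters, 6 rose (26.1%) and 8 fell (34.8%), against 29.5% and 8.29% of all genes tested. Their median was -0.07. With median-of-ratios scaling 5 rose and 12 fell, where 1541 of all 12869 genes tested were higher and 2239 lower. Amacr, a racemase for branched chains and bile acid precursors, had 71.7, 75.9 and 66.7 FPKM in db/db vehicle 1 to 3 and 289, 206, 328, 241 and 287 FPKM in m/m (log2 fold change -1.89, adjusted p = 3.34e-07). Hacl1, a lyase of alpha-oxidation, had 81.1, 68.9 and 90.5 FPKM in db/db vehicle and 12.9, 20, 11.9, 17.3 and 17.3 FPKM in m/m (2.28, adjusted p = 3.86e-07). The transporter and very-long-chain synthetase Slc27a2, one of the proximal tubule markers, averaged 1150 ± 37.7 FPKM in db/db vehicle and 2060 ± 78.6 FPKM in m/m (-0.84, adjusted p = 1.69e-06).

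The shares called in the machinery around these enzymes were near those of all genes tested, of which 29.5% were higher and 8.29% lower. Of 15 peroxins, which build peroxisomes and import their proteins, 4 rose (26.7%) and 1 fell (6.67%), with a median of 0.07; with median-of-ratios scaling 0 rose and 4 fell. The calls with the smallest adjusted p were Pex2 (log2 fold change -0.35, adjusted p = 0.00164), Pex16 (0.38, adjusted p = 0.00169) and Pex14 (0.31, adjusted p = 0.00326). Of 14 genes of the PPAR family, its partners and coregulators, 4 rose (28.6%) and 2 fell (14.3%); with median-of-ratios scaling 0 rose and 4 fell. Ppard, a paralog of Ppara, averaged 6.59 ± 0.938 FPKM in db/db vehicle and 12.2 ± 3.26 FPKM in m/m (-0.77, adjusted p = 0.00875). The coactivator Ppargc1a averaged 7.34 ± 0.903 FPKM in db/db vehicle and 5.41 ± 0.265 FPKM in m/m (0.38, adjusted p = 0.00870), and the Mediator subunit Med1 had a log2 fold change of 0.31 (adjusted p = 0.00675).

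Other known PPAR-alpha targets held the largest increases. Of 17, 13 rose (76.5%) and 1 fell (5.88%), against 29.5% and 8.29% of all genes tested. The median log2 fold change was 1.05. Under median-of-ratios scaling 12 rose and 1 fell, with a median of 0.85. Cyp4a14, a fatty acid omega-hydroxylase, had 482, 321 and 424 FPKM in db/db vehicle 1 to 3, against 2.80, 3.70, 1.99, 3.01 and 2.10 FPKM in m/m (6.78, adjusted p = 6.1e-12). Cyp4a10 averaged 488 ± 95.9 FPKM in db/db vehicle and 73.7 ± 13.7 FPKM in m/m (2.71, adjusted p = 6.68e-08). For Cyp4a14 every db/db vehicle library was far above every m/m library, while Ppara overlapped between the same libraries.

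**Figure D4:**
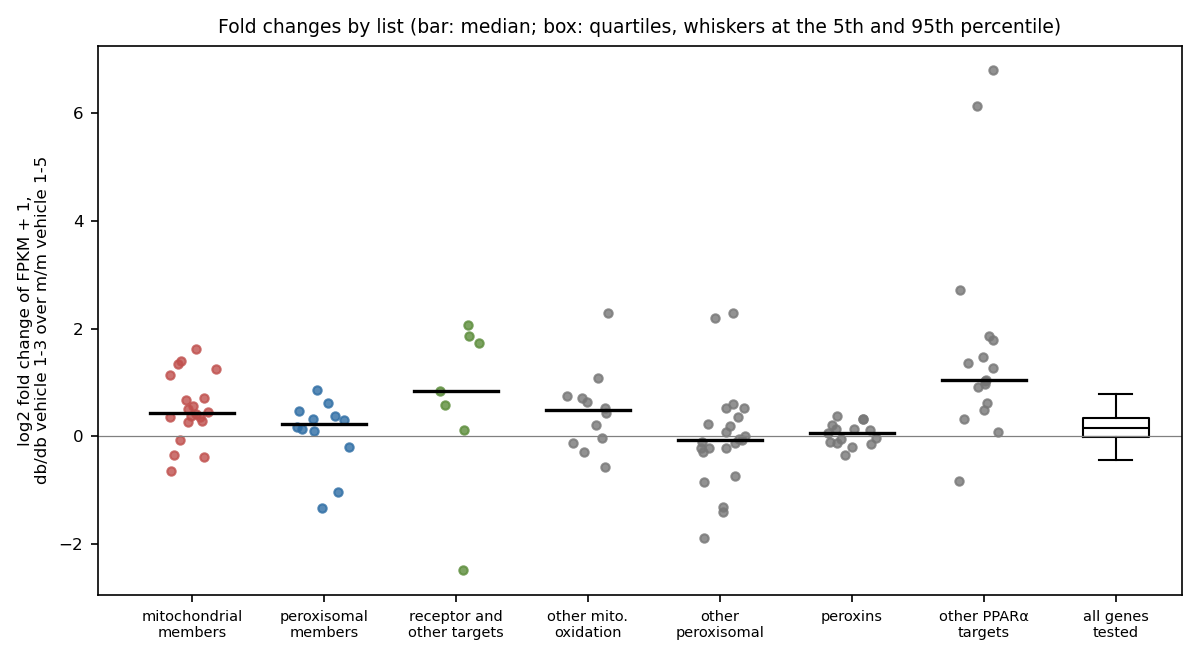
Log2 fold change of FPKM + 1, db/db vehicle 1 to 3 over m/m 1 to 5 (y axis), of each gene in 7 lists (x axis; points are genes, bars are list medians), beside the quartiles and the central range of all 12869 genes tested. The median is 0.44 for mitochondrial, 0.24 for peroxisomal and 1.05 for other PPAR-alpha target genes, against 0.16 over all genes.

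Dapagliflozin was compared with vehicle within the low-read db/db libraries. By limma, 0 of the 41 genes passed the adjusted threshold, against 0.272% of all 12869 genes tested. An unadjusted p under 0.05 by limma was found for 2 of the 41, against 1631 of the 12869. The log2 fold changes of the 41 ran from -0.35 to 0.18, with a median of 0.01, against -0.02 over all genes. The medians were 0.00 for the mitochondrial and 0.02 for the peroxisomal genes. The 95% intervals of 32 of the 41 genes lay within 0.5 either side of 0 on the log2 scale, and all 41 lay within 1. These intervals rest on a spread estimated from all 14 samples of both library sets. In a fit of the low-read set alone, 31 lay within 0.5 and 40 within 1, with Fabp1 reaching 1.07. A p that misses the threshold does not show that the groups were alike, and with 2 vehicle samples the intervals set what could be seen.

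The 2 genes with an unadjusted p under 0.05 were Ehhadh and Acsl1, both with lower means with dapagliflozin and neither called. Ehhadh had 93.4, 79.9, 69.4, 78.6 and 86.0 FPKM in dapagliflozin 1 to 5, against 99 and 101 FPKM in db/db vehicle 4 and 5. All dapagliflozin values were below both vehicle values, with a log2 fold change of -0.27 (-0.51 to -0.02, adjusted p = 0.344 by limma). Acsl1 had 32.5, 32.1, 30.4, 31.4 and 37.5 FPKM with dapagliflozin and 42.6 and 36.8 FPKM with vehicle, which overlap (-0.25, adjusted p = 0.387). Acad11 was the 1 gene of the 41 with every dapagliflozin value above both vehicle values, at 77.3, 74.6, 77.6, 81.8 and 73.9 FPKM with dapagliflozin against 67 and 73.1 FPKM with vehicle (0.14, adjusted p = 0.512). Groups without overlap were found for 5.73% of all genes in the higher direction and 7.09% in the lower.

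None of the 33 genes called between db/db vehicle and m/m was called here by limma. Slc25a20 averaged 38.0 ± 4.96 FPKM with dapagliflozin and 35.0 ± 5.88 FPKM with vehicle (SD, n = 4 and 2; log2 fold change 0.12, adjusted p = 0.812). Acaa2 averaged 243 ± 29.0 FPKM with dapagliflozin and 224 ± 7.02 FPKM with vehicle, a log2 fold change of 0.11 with an interval of -0.13 to 0.36. Cd36 had 11.3, 7.69, 12.7, 16.4 and 11 FPKM with dapagliflozin and 9.37 and 14.1 FPKM with vehicle, so the vehicle values lay within the dapagliflozin range (0.05, -0.47 to 0.57). Eci3 averaged 101 ± 4.59 FPKM with dapagliflozin and 111 ± 9.11 FPKM with vehicle (-0.13).

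Wide intervals were found for Acot1 and Fabp1, and other target genes were not called either. Acot1 had 27.1, 27.6, 25.2, 31.0 and 38.4 FPKM with dapagliflozin, against 42.2 and 36.0 FPKM with vehicle, overlapping through dapagliflozin 5 (log2 fold change -0.35, -0.82 to 0.12, adjusted p = 0.549). Angptl4 averaged 22.9 ± 5.13 FPKM with dapagliflozin and 23.8 ± 5.28 FPKM with vehicle (-0.06). Ppara averaged 14.1 ± 1.93 FPKM with dapagliflozin and 12.8 ± 1.28 FPKM with vehicle (0.12). Fabp1 had 6, 3, 1, 7 and 8 reads in dapagliflozin 1 to 5 and 4 and 5 reads in vehicle 4 and 5. Its log2 fold change was 0.15 (-0.62 to 0.93), and differences within that interval cannot be told apart at this depth.

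Of the pathway lists, the only call in this comparison was 1 peroxin. Pex7, the import receptor for proteins with the second peroxisomal signal, had 13.8, 12, 12.8, 13 and 12.9 FPKM in dapagliflozin 1 to 5, against 16.7 and 19.6 FPKM in db/db vehicle 4 and 5 (log2 fold change -0.44, adjusted p = 0.0255). All dapagliflozin values were lower, and Pex7 was named after its values were seen. The call held in 10 of 18 alternatives, with log2 fold changes from -0.80 to -0.34. Fits without a high-read library, which change the shared spread, were not among the 18. The call was lost without db/db vehicle 4 (adjusted p = 0.0746 by limma), db/db vehicle 5 (0.168) or dapagliflozin 4 (0.0605). Median-of-ratios scaling (0.0655), a filter of 5 FPKM (0.0519), array weights (0.1) and the replicate block (0.221) also ended it. So did a fit of the low-read set alone (0.861). In the same libraries the summed macrophage markers ran from 21.9 to 156 FPKM with dapagliflozin and were 18.9 to 147 FPKM with vehicle, and the proximal tubule markers were 7730 to 8850 FPKM with dapagliflozin and 7610 to 7730 FPKM with vehicle. Their part in the Pex7 value was not tested.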

How the data were processed

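The members and the gene lists were chosen with earlier results of these data known. Per the labels' protocols, kidney RNA (mirVana) went into TruSeq Stranded mRNA libraries. The authors deposited 1 table of FPKM per gene; the submitters' processing notes name the build GRCm39 and the tools HISAT2, Trimmomatic, Cufflinks and HTSeq. Their versions and the strand setting were not given in the sources used here. Dividing FPKM by the value of 1 read gave whole numbers for 100% of genes (relative tolerance 1e-08) and so reads per library, used for depth only; a boundary of 5 M separated the library sets.

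Log2(FPKM + 1) of genes averaging 0.5 FPKM or more was fitted with limma 3.58.1 in R 4.3.3, with an intensity trend, group and library set as terms, 14 samples, 2-sided tests and Benjamini-Hochberg adjustment over 12869 genes; intervals are 95%. Fold changes on the log2(value + 1) scale understate low genes. All 41 members are named by role; of each other list, up to 3 called genes with the smallest adjusted p are named, except 1 that is not reported here. Alternatives were other pseudocounts, filters and scalings, array weights, a replicate block, fits within 1 library set, a pooled fit, and each library left out. The variance of dapagliflozin 2 against 3 was 1.02 times sampling noise (other dapagliflozin pairs 1.73 to 7.46). Gene overlaps and shared 50-base stretches came from a GRCm38 annotation by symbol, so no GRCm39 coordinates are given.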

Additional observations from a re-analysis of the deposited data

Results flagged for a closer look

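Of 82 groups of 4 or 5 samples examined (41 genes in m/m and in dapagliflozin), 5 had a sample far from the others by Dixon's test, and chance flags about 1 in 20. Hadh was 349 FPKM in m/m 4, against 316 to 324 FPKM in the other m/m libraries. Acaa1a was 44.3 FPKM in dapagliflozin 4 and 36.5 to 37.6 FPKM in the other dapagliflozin samples. Etfb was 276 FPKM in the average of dapagliflozin 2 and 3, against 332 to 342 FPKM in the others, and Fabp1 was 2.36 FPKM in that average, against 6.26 to 6.88 FPKM. Fabp1 was 0.475 FPKM in m/m 5 and 0 to 0.128 FPKM in the other m/m libraries, which is 4 reads against 0 to 1.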

How the results depend on the processing

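Of the 33 members called between db/db vehicle and m/m, 18 kept direction and call in all alternatives that could test them (up to 26), among them Slc25a20, Acsl1, Acaa2, Eci1, Acot1, Angptl4, Eci3, Crot and Cd36; Fabp1, not tested with a filter of 5 FPKM, kept both in the others. Leaving out 1 library at a time gave 25 to 29 members higher and 6 lower; for dapagliflozin it gave 0 in both directions. Pooling the library sets without a set term, which mixes the level gap between sets into the groups, gave 17 higher and 6 lower, and for dapagliflozin 0 higher and 4 lower (Cpt2 -0.68, Acsl1 -0.72, Ehhadh -1.04, Acot1 -1.07). In that fit Crat (-0.01), Acadl (-0.04), Hadh (-0.18) and Etfdh (-0.02) changed sign, with adjusted p from 0.548 to 0.971. Median-of-ratios scaling ended 8 calls and called Etfa and Ehhadh lower, and quantile normalization ended 2 calls. The cause was not tested. With the replicate number as a block 26 rose and 6 fell, and dapagliflozin gave 0. Same-numbered samples had correlations from -0.724 to 0.381, and only number 1 correlated best with its own number. These are deviations from the mean of each group and set, which mirror each other in the 2 low-read vehicle samples. The few correlations therefore cannot decide whether the numbers pair the samples. Over all genes, the dapagliflozin comparison gave 16 higher and 19 lower calls, 0 and 0 with the block, 0 and 1 with array weights or within the low-read set alone, 63 and 160 with no filter, and 190 and 723 pooled; between db/db vehicle and m/m, quantile normalization gave 1600 and 1761 and pooling 2095 and 1070. The 2 low-read vehicle libraries limit the dapagliflozin comparison.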
